A study of Mus musculus with 6 samples.

Results

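The 3 control libraries of a study of BMP signalling in tooth mesenchyme are described here: how abundant each gene was, how the genes ranked and how far the libraries differed. All 3 control columns of the deposited table were used, out of 6 libraries in the series. Symbols whose mean over the controls reached 1 RPM (reads per 1000000 reads) were kept, which gave 14417 of 25899 gene symbols. The tissue was the apical dental mesenchyme of mandibular first molars at postnatal day 7.5, from mice of a mixed C57Bl6/129S6/SvEvTac background. The controls carried loxP-flanked Bmpr1a alleles (Bmpr1afl/fl), and no Cre driver is named in their genotype. Control 1 and control 2 came from litter 1 and control 3 from litter 2, so that litter and library cannot be told apart for control 3. Tamoxifen treatment, the sex of the mice and the number of mice behind a library are not given in the sources used here.

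In a growing molar the dental papilla holds mesenchymal progenitors at its apical end and odontoblasts, the cells that secrete dentin, where it faces the enamel-forming epithelium. Odontoblasts lay down collagen I and acidic phosphoproteins such as the products of Dspp, while ameloblasts on the epithelial side secrete amelogenin, ameloblastin and enamelin. Bone morphogenetic proteins (BMPs) pass signals between epithelium and mesenchyme through type I and type II receptors and the Smad proteins, and Bmpr1a encodes a type I receptor.

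Poly(A) RNA was sequenced, and 20568542, 19557695 and 19119135 reads on genes were recovered in controls 1, 2 and 3. Values given in a row are always in that order. A level in RPM counts reads and grows with transcript length, so levels of different genes are compared as RPM per kilobase of exon. With a single group of 3 libraries no test was made, and errors are SD over n = 3, which may hold technical as well as biological variation. A gene is called variable where its highest library was at least 2 times its lowest, as held for 2782 of 14417 genes (19.3%). By its position on the log scale, control 3 was the library apart in 1788 of these genes, control 2 in 662 and control 1 in 332. Of all 14417 genes, 2.93% were variable with control 3 higher and 9.47% with control 3 lower. The corresponding shares were 1.3% and 3.29% for control 2, and 1.78% and 0.527% for control 1. With control 1, 2 or 3 left out, 2169 of 14323, 1694 of 14408 and 794 of 14435 genes were variable. The split by direction moved with the scale used. The median gene differed between control 3 and control 1 by -0.17 and between control 3 and control 2 by -0.11 on the log2(RPM + 1) scale. After median-of-ratios scaling, which removes that shift, control 3 was higher in 573 variable genes and lower in 996, against 422 and 1366 on the deposited scale. Of all genes, 38.0% were highest in control 1, 34.1% in control 2 and 27.9% in control 3, and 13.9%, 32.4% and 53.7% were lowest in controls 1, 2 and 3. After median-of-ratios scaling the shares were 23.1%, 34.99% and 41.9% for the highest and 25.6%, 33.96% and 40.5% for the lowest.

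On the deposited scale Bmpr1a differed 1.24-fold from its lowest to its highest library, beside a median of 1.38-fold over all genes. Median-of-ratios scaling, which lowers control 1 and raises control 3, would widen this range. The level of Bmpr1a was 121, 139 and 149.5 RPM, a mean of 136 ± 14.4 RPM (SD, n = 3). It was at rank 788 by reads and rank 2291 per kilobase of exon. Col1a1, which encodes a chain of collagen I and serves as a mark of the matrix-forming tissue, was at 15516, 21460.0 and 14403 RPM, a mean of 17126 ± 3794 RPM. It had the most reads of any gene in controls 1 and 2 and was exceeded by Amelx in control 3. Dspp, the precursor of dentin sialoprotein and dentin phosphoprotein and the mark of odontoblasts, was at 4032, 4844 and 817 RPM, a mean of 3231 ± 2130.0 RPM. Controls 1 and 2 were close together, and control 3 was lower, 5.93-fold below control 2. By reads Dspp ranked 5 in control 1, 4 in control 2 and 42 in control 3. These marks of matrix-forming tissue and of odontoblasts were therefore abundant in all 3 libraries, and Dspp was also among the genes that varied most at high level.

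The regulators of dental mesenchyme were present in all 3 libraries and varied less than Dspp. All 19 listed markers of dental mesenchyme had a mean of at least 1 RPM, and their summed level was 4216, 4889 and 3762 RPM. Of the 19, 3 were variable (1 without control 3), near the 19.3% of all genes. Vim, the intermediate filament vimentin, was at 1926, 2487 and 1766 RPM. Barx1, a homeobox regulator of molar identity, was at 512, 415 and 304 RPM, with the highest value in control 1 and the lowest in control 3. Msx1 and Msx2, homeobox genes that respond to BMPs, did not share a pattern. Msx1 was at 218, 305 and 91.2 RPM, lowest in control 3 and variable, whereas Msx2 was at 167, 287 and 271 RPM, lowest in control 1. Pax9, needed for tooth development, was at 50.9, 24.6 and 18.7 RPM and was the member in which control 1 stood higher. Lhx8, a LIM homeobox gene of the jaw mesenchyme, was nearly level at 19.3, 19.5 and 22.6 RPM. Gli1, a hedgehog target that marks root-forming mesenchyme, was at 34.9, 30.4 and 63.7 RPM, highest in control 3.

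Reads were spread over many genes, with a steep top. The mean level was at least 10 RPM for 9978 genes, at least 100 RPM for 1308 and at least 1000 RPM for 31, and the median was 20.96 RPM. A further 4382 symbols had reads but a mean under 1 RPM, and 7100 had no read in any control. The 10 genes with the highest means held 8.59% ± 1.93 of reads on genes (7.04%, 7.99% and 10.7%), the top 100 held 19.1% ± 2.24, and 1255 genes held 50% of them. Every such share has a 95% Wilson half-width of at most 0.0224 percentage points, which covers counting error only.

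**Figure D1:**
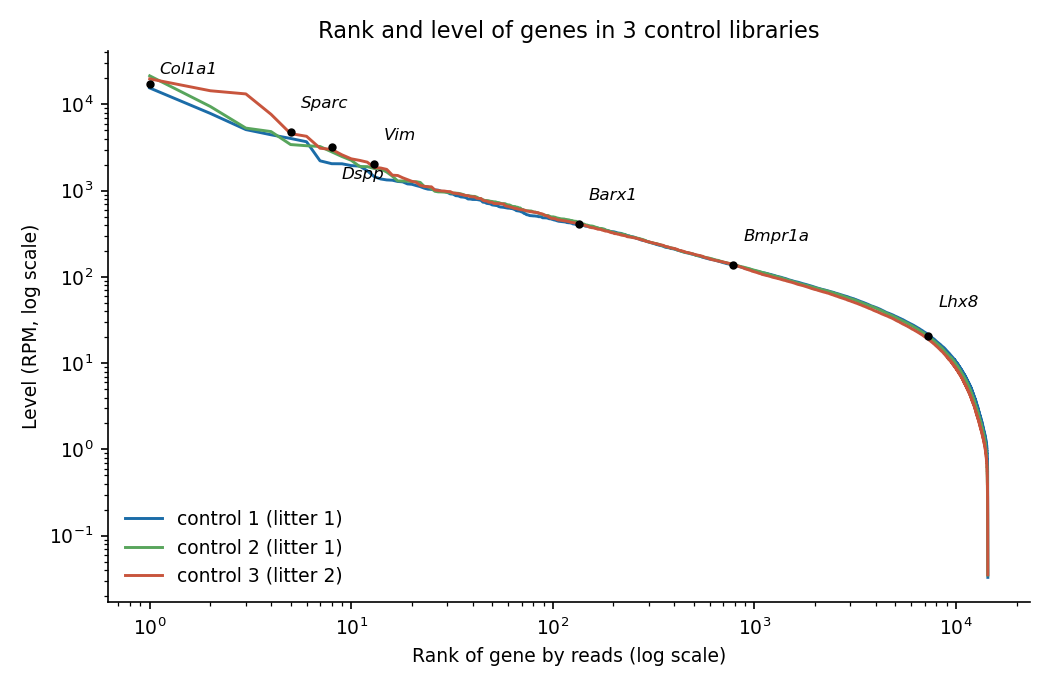
Level (RPM, log scale) against rank (log scale) for the described genes with reads, sorted separately in each of the 3 control libraries, with black points for 7 genes at their mean level and mean rank. The 3 curves nearly coincide below the highest ranks, and control 3 lies above the others at ranks 2 and 3, where Col1a1 (14403 RPM) and Ambn (13238 RPM) sit.

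Collagen I and its companions led the table. Col1a1 and Col1a2 together took 3.75% ± 0.675 of reads on genes, and Col1a2 was at 7861, 9457 and 7680.5 RPM. Col3a1, a fibrillar collagen of soft connective tissue, was at 5109, 3253 and 3010.0 RPM and was highest in control 1. Sparc, a collagen- and calcium-binding matrix protein, was steady at 4449, 5316 and 4589 RPM. Lum, the proteoglycan lumican, was at 1706, 2825 and 2144 RPM, and Igfbp5, an IGF-binding protein, at 2050.4, 2252 and 2603 RPM. Serpinh1, the collagen chaperone HSP47, was at 1266, 1298 and 1856 RPM. Tnc, tenascin-C, was at 1368, 1786 and 541 RPM and was lower in control 3. The elongation factors of translation were also near the top, with Eef1a1 at 3692, 3427 and 4273 RPM and Eef2 at 2056, 1908 and 2246 RPM.

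Other genes among the 20 with the most reads have varied roles. Nudt4, a phosphohydrolase of inositol pyrophosphates, was at 1953, 3320.0 and 908 RPM, highest in control 2 and lowest in control 3. Laptm4a, a lysosomal membrane protein, was at 1333, 1809 and 875 RPM with the same order. Fstl1, a secreted follistatin-like protein, was at 1454, 1473 and 1005 RPM. Ctnnb1, which encodes beta-catenin, was at 1147, 1247 and 1513 RPM, and the ubiquitin ligase gene Nedd4 at 1279, 1271 and 1153 RPM. Gnb2l1, the ribosomal scaffold protein also called Rack1, was at 1323, 1059 and 1832 RPM, highest in control 3. Nudt4, Laptm4a, Tnc, Dspp, Amelx and Ambn were the 6 variable genes of the 20.

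**Figure D2:**
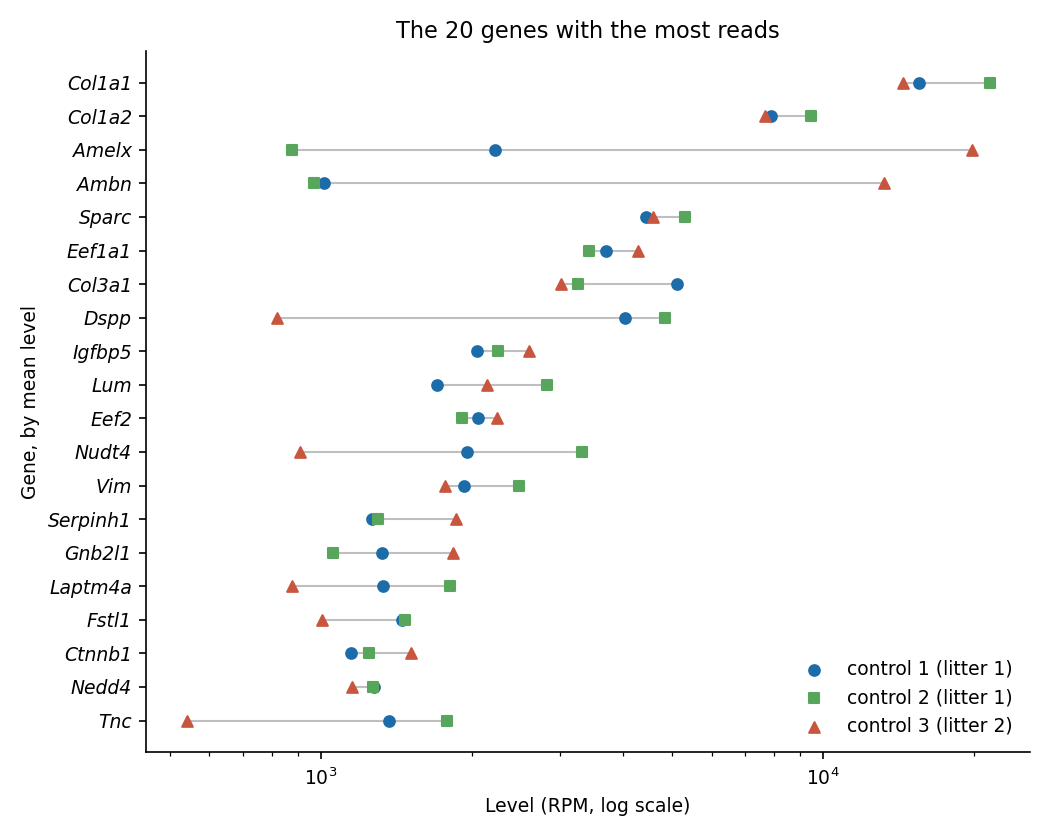
Level (RPM, log scale) of the 20 genes with the highest mean reads, with a circle for control 1, a square for control 2 and a triangle for control 3, and a grey line over their range. Amelx and Ambn have long lines with control 3 far to the right, while Dspp, Nudt4 and Tnc have control 3 on the left.

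Dividing by exon length changed which genes led. Amelx headed that list at 7638 ± 10566 RPM per kilobase, followed by Col1a1 at 2888 ± 639.8, Ambn at 2644 ± 3685, Eef1a1 at 2117 ± 241 and Sparc at 1758 ± 171 RPM per kilobase (mean ± SD, n = 3). The places of Amelx and Ambn rested on control 3: Amelx was at 2223, 877 and 19814 and Ambn at 528, 505 and 6898 RPM per kilobase, whereas Col1a1, at 2617, 3619 and 2429 RPM per kilobase, exceeded both in controls 1 and 2. Of the 20 genes with the most reads, 11 remained among the top 20 per kilobase. Bglap, which encodes the mineral-binding protein osteocalcin, entered at place 8 with 1096 ± 521 RPM per kilobase, although Bglap2 is a near-identical copy and reads may be split between them. Dspp was at place 19, against rank 8 by reads, at 729 ± 481 RPM per kilobase. Pseudogenes Gm10222, Gm9843 and Gm5805 also entered, whose reads may come from their parent genes, as did Gm10073, a gene model annotated as protein-coding. Processed pseudogenes held 1.66% ± 0.247 of reads on genes.

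The odontoblast and bone markers did not share an order of the libraries. Of 8 odontoblast markers 5 were variable, and of 8 osteoblast markers with a mean of at least 1 RPM 6 were variable, against 19.3% of all genes. Phex, a membrane endopeptidase mutated in X-linked hypophosphatemia, followed Dspp at 387, 498 and 113 RPM. Nes, the intermediate filament nestin, was at 454, 543 and 288 RPM and was lowest in control 3. In contrast Dmp1, an acidic phosphoprotein of mineralizing matrix, was at 5.33, 18.9 and 88.7 RPM, 16.6-fold higher in control 3 than in control 1. Smpd3, a sphingomyelinase needed for mineralization, was at 184, 155 and 458 RPM and Panx3, a channel protein of mineralizing cells, at 30.3, 62.01 and 68.3 RPM. Sp7, a transcription factor of osteoblasts and odontoblasts, was at 77.8, 126 and 109 RPM.

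Control 1 was the lowest library in 8 of 8 osteoblast markers, under all 3 scalings compared, against 13.9% of all genes on the deposited scale. Spp1, osteopontin, was at 4.54, 96.1 and 159 RPM, or 34.98-fold lower in control 1 than in control 3. Ibsp, bone sialoprotein, was at 35.5, 65.9 and 154 RPM, and Ifitm5, a membrane protein of bone-forming osteoblasts, at 4.84, 5.53 and 45.2 RPM. Bglap was at 279, 730.4 and 437 RPM and was highest in control 2. Alpl, the phosphatase that frees phosphate for mineral, was at 485, 587 and 605 RPM and was not variable. Sost, a product of osteocytes, was at 0, 0.105 and 3.602 RPM, and Mepe, another matrix phosphoprotein, was listed without reads in controls 1 and 2 and at 0.424 RPM in control 3. The osteoclast markers had little signal apart from Ctsk, the protease cathepsin K, at 141, 169 and 141 RPM, while Acp5, tartrate-resistant phosphatase, was at 13.3, 28.2 and 44.4 RPM and lowest in control 1. Without control 3, 2 of 8 odontoblast and 3 of 8 osteoblast markers were variable, and without control 1 the osteoblast count was also 3.

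Of 6 mineral transport genes 5 were highest in control 3, against 27.9% of all genes, and 1, Slc20a2, was highest in control 2. Slc20a2, a phosphate transporter, was at 1199, 1902 and 453 RPM and was lower in control 3. Phospho1, a phosphatase of matrix vesicles, was at 5.86, 10.3 and 47.2 RPM and was higher in control 3, but 83.2% of its exon bases are shared with Abi3 on the opposite strand, so its reads are uncertain. Ank, a pyrophosphate transporter, was at 92.8, 119.5 and 189 RPM and Enpp1, which makes pyrophosphate, at 27.6, 30.4 and 53.4 RPM. Of the 6 genes 4 were variable, against 19.3% of all genes, and without control 3 none of the 6 was (0 of 6).

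Dspp and Dmp1 lie near each other on chromosome 5 with opposite patterns in the 3 libraries. In GENCODE M21 on GRCm38, Dspp spans chr5:104170712-104180127, Dmp1 chr5:104202613-104214102, Ibsp chr5:104299171-104311469 and Spp1 chr5:104435118-104441050, all on the + strand. Dspp was lowest in control 3, and the next 3 were highest there. Another group of mineral and milk protein genes lies on the same chromosome, with Odam at chr5:87885029-87894174, Csn3 at chr5:87925579-87932665, Amtn at chr5:88376108-88385916, Ambn at chr5:88455991-88468531 and Enam at chr5:88487975-88506049. All 5 were higher in control 3, whereas Utp3, the next described gene after Enam, was level at 30.2, 27.04 and 28.5 RPM. Amelx lies on the X chromosome at chrX:169176114-169187200 on the - strand, within the span of Arhgap6 on the + strand (chrX:168795099-169304435), which was at 4.51, 1.82 and 4.24 RPM.

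Enamel genes went against the label of mesenchyme, although the labels also call the tissue a tooth germ. They took 0.526%, 0.313% and 5.44% of reads on genes, and their summed level was 3562, 2143 and 36754 RPM, 17.2-fold higher in control 3 than in control 2. Control 3 was apart and higher in 6 of 7 enamel genes (against 2.93% of all genes), and without control 3 2 of 7 were variable. Amelx was at 2220.4, 876 and 19794 RPM, at rank 7 in control 1, 38 in control 2 and 1 in control 3. Ambn was at 1014, 969 and 13238 RPM and Enam at 189.6, 133 and 3107 RPM. Of the genes known from the maturation of enamel, Odam was at 13.1, 15.7 and 223 RPM, Amtn at 6.06, 14.9 and 184 RPM, and the protease gene Klk4 at 17.5, 18.7 and 98.4 RPM. Mmp20, the protease that cuts enamel proteins and is also made by odontoblasts, was the exception at 102, 115 and 109 RPM. Controls 1 and 2, without control 3, still held between 876 and 2220 RPM of Amelx. How far RNA of enamel epithelium sets the other differences of control 3 was not tested.

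To show what the enamel genes share or lack in front of their start sites, the last 60 bases before the start are given for 5 of them. Hba-a1 and Alas2 are added as red cell genes higher in control 3. Hnrnpk and Morf4l2 are added as even genes. They had the lowest coefficients of variation (CV, SD over mean) on the deposited scale among genes averaging 100 RPM or more. The bases are from RefSeq, build GRCm38.p6, read 5′ to 3′ on the gene's strand. They precede the start site listed first for each gene, and capitals mark TATAA. The motif was searched on the gene's strand only, with its first base between positions -40 and -20 from the start.
Amelx (chrX:169187210-169187269, - strand): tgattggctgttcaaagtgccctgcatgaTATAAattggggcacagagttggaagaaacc
Ambn (chr5:88455931-88455990, + strand): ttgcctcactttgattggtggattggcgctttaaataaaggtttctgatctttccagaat
Enam (chr5:88487915-88487974, + strand): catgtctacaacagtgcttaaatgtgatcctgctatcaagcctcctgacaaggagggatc
Odam (chr5:87884950-87885009, + strand): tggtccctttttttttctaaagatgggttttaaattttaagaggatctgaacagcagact
Amtn (chr5:88376048-88376107, + strand): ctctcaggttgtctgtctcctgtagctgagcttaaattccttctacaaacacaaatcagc
Hba-a1 (chr11:32283612-32283671, + strand): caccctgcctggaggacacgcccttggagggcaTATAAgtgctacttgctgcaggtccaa
Alas2 (chrX:150547357-150547416, + strand): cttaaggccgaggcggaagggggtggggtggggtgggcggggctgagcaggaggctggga
Hnrnpk (chr13:58402118-58402177, - strand): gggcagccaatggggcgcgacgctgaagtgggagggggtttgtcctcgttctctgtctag
Morf4l2 (chrX:136743687-136743746, - strand): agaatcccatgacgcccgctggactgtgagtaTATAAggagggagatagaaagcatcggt
The letters TATAA were found at -31 before Amelx, at -27 before Hba-a1 and at -28 before Morf4l2, and were not in this window of Ambn, Enam, Odam, Amtn, Alas2 or Hnrnpk. The genes higher in control 3 and the even genes each include a gene with these letters and a gene without. Among 27025 genes of the RefSeq promoter table, 1035 (3.83%) held them in the same window.

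Among keratinocyte-type genes control 2 stood apart. Of 10 general epithelial markers 10 were variable with control 2 lower (against 3.29% of all genes), and their sum was 2113, 288 and 3563 RPM. Krt5 and Krt14 pair in the filaments of basal epithelial cells. Krt5 was at 832, 95.4 and 1345 RPM and Krt14 at 436, 81.5 and 990.1 RPM. Cdh1, E-cadherin, was at 93.5, 15.5 and 218 RPM, and Trp63, the regulator of stratified epithelium, at 104, 20.01 and 183 RPM. Shh, the hedgehog ligand made by dental epithelium, was at 62.1, 10.4 and 86.8 RPM. Krt15 was at 17.1, 0.140 and 12.8 RPM and Sox2, a marker of epithelial progenitors, at 7.37, 0.630 and 2.33 RPM. Without control 2, 4 of 10 remained variable.

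Among the other cell types, endothelial genes were the most even and macrophage genes the most consistently lower in control 3. In such bulk tissue fewer cells of a type and less RNA per cell cannot be told apart. The 9 endothelial markers summed to 504, 439.5 and 386 RPM and 0 of 9 were variable, with Cdh5, VE-cadherin, at 112, 87.3 and 86.7 RPM and Pecam1 at 75.1, 69.1 and 64.5 RPM. The 9 macrophage markers summed to 587, 697 and 243 RPM, and 9 of 9 were variable with control 3 lower (against 9.47% of all genes), or 8 of 9 variable after median-of-ratios scaling. Csf1r, the receptor for colony-stimulating factor, was at 125, 158 and 56.9 RPM, Mrc1, the mannose receptor, at 98.4, 156 and 27.97 RPM, and C1qa, a complement subunit, at 61.6, 85.2 and 29.4 RPM. Without control 3, 0 of 9 macrophage markers were variable.

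Mural cells of vessels divided by gene. The 9 pericyte and smooth muscle markers summed to 982, 939 and 425 RPM. Of the 9, 7 were variable, 5 of them with control 3 lower, against 19.3% and 9.47% of all genes. Rgs5, a pericyte regulator of G-protein signals, was at 321, 306 and 90.99 RPM, Pdgfrb, the receptor for PDGF-B, at 208, 150.2 and 65.04 RPM, and Notch3 at 161, 174 and 33.2 RPM. Of the contractile genes, Acta2, smooth muscle actin, was at 32.3, 26.5 and 51.1 RPM and Tagln at 19.1, 21.3 and 46.04 RPM, both highest in control 3. Without control 3, 0 of 9 were variable.

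Red cell genes were higher in control 3. Haemoglobin and haem synthesis markers summed to 230.1, 268 and 2524 RPM, 11.0-fold from lowest to highest. Of those with a mean of at least 1 RPM, 5 of 5 were variable with control 3 higher (against 2.93% of all genes). Hbb-b1, a beta globin gene, was at 77.7, 87.02 and 813 RPM and Hba-a1, an alpha globin gene, at 49.3, 61.1 and 579 RPM. Reads may be split between Hba-a1 and Hba-a2 and between Hbb-b1 and Hbb-b2, which are near-identical copies. Alas2, the erythroid enzyme of haem synthesis, was at 3.32, 3.08 and 25.2 RPM. Without control 3 none was variable (0 of 5).

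Signal of most remaining cell types was low. Lymphocyte markers summed to 5.36, 4.76 and 3.28 RPM, and Cd3e and Cd3g had no read in any library. Neutrophil markers summed to 5.99, 3.08 and 3.28 RPM, skeletal muscle markers to 2.01, 1.54 and 1.45 RPM and adipocyte markers to 0.856, 1.96 and 0.318 RPM. Of the mast cell list, Kit was at 106, 145 and 56.99 RPM while Cpa3, a mast cell protease, was at 0.922, 0.979 and 1.02 RPM. Glial markers summed to 38.9, 49.9 and 29.2 RPM, with the regulator Sox10 at 9.28, 3.32 and 2.86 RPM. The neuron list rested on Tubb3, a tubulin, at 41.7, 33.5 and 180.1 RPM, whereas Prph, the peripheral neuron filament, was at 0.0658, 0.0699 and 0.141 RPM. Of the cartilage list, Sox9 was at 107, 118 and 87.7 RPM and Col2a1 at 31.8, 19.3 and 14.97 RPM, and Matn1, a cartilage matrix protein, had at most 3 reads in a library. The follicle and ligament list was higher, with a sum of 942, 482 and 391 RPM, and was led by Postn, periostin, at 791, 320.2 and 222 RPM, highest in control 1, and Scx, a tendon and ligament regulator, was at 0.954, 0.455 and 1.09 RPM.

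**Figure D3:**
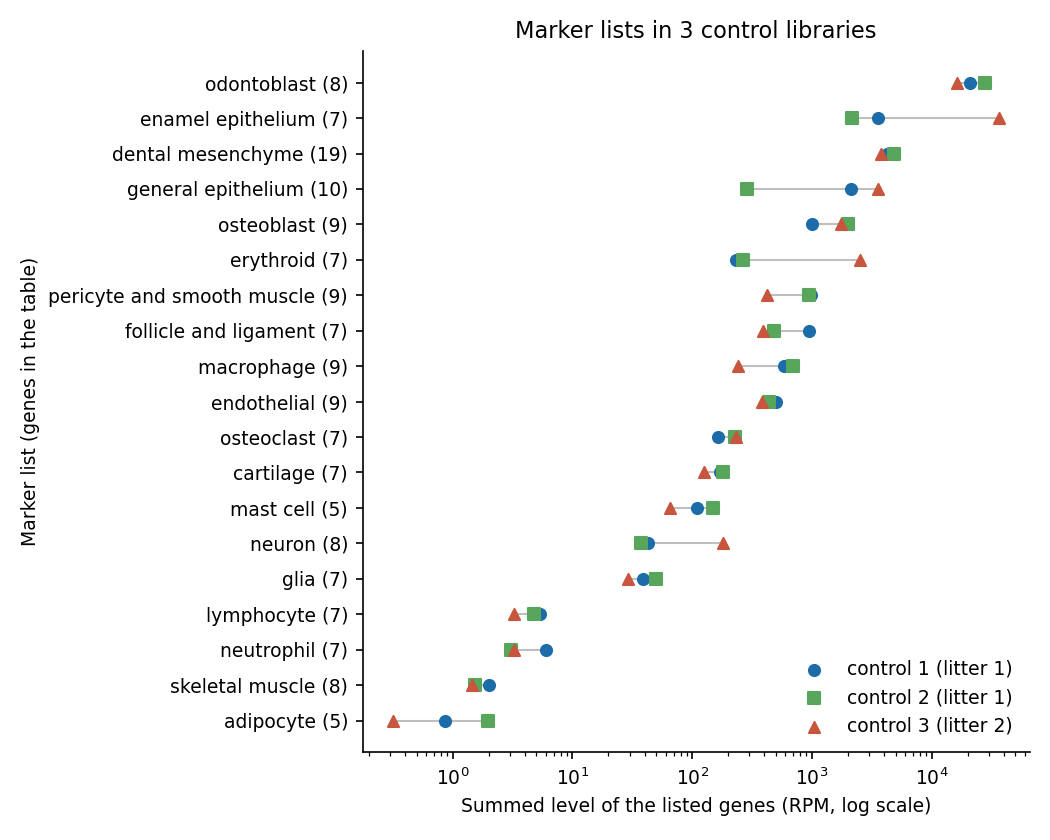
Summed level (RPM, log scale) of each marker list in the 3 control libraries, with the number of listed genes found in the table in brackets and a grey line over the range. Control 3 is far to the right for the enamel (36754 RPM) and erythroid (2524 RPM) lists, control 2 is far to the left for the general epithelial list (288 RPM), and the endothelial and dental mesenchyme points lie close together.

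The libraries also differed in genes of the sex chromosomes. Xist, the RNA that coats the inactive X chromosome in female cells, had 1 read in control 1 (0.0329 RPM) and 262 and 102 RPM in controls 2 and 3. Ddx3y, a gene of the Y chromosome, was at 63.4 RPM in control 1 and had no read in controls 2 and 3, at least 604-fold lower in control 2 and at least 599-fold lower in control 3 against a floor of 3 reads per library. The 4 Y-linked genes listed, Ddx3y, Eif2s3y, Uty and Kdm5d, had reads in control 1 only. The part of sex in the other differences of control 1 was not tested.

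Matrix genes beyond collagen I varied gene by gene. Of 43 listed collagen genes, 36 had a mean of at least 1 RPM. Of the 36, 20 were variable, against 19.3% of all genes, or 17 of 35 after median-of-ratios scaling. The collagens together still kept to 5.37%, 6.12% and 4.78% of reads on genes. Without control 3, 7 of the 36 were variable. Of the 36, 9 were variable with control 3 lower, against 9.47% of all genes. Examples were Col9a2, a chain of collagen IX, at 510.1, 859.6 and 230.0 RPM and Col23a1, a transmembrane collagen, at 411, 559 and 147 RPM. Col17a1, the collagen of hemidesmosomes, was at 229.7, 84.99 and 600.3 RPM, and Col7a1, of anchoring fibrils, at 157, 44.98 and 249.6 RPM, both lowest in control 2. Col22a1, a collagen of tissue junctions, was at 10.01, 11.8 and 108 RPM, whereas Col6a3, a chain of collagen VI, was level at 225, 223 and 212 RPM.

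Small proteoglycans also varied gene by gene. Fmod, fibromodulin, was at 514, 940.2 and 97.03 RPM and Prelp, a heparin-binding proteoglycan, at 76.9, 161 and 5.37 RPM, both lower in control 3. Dcn, decorin, was at 918, 1296 and 1411 RPM and Bgn, biglycan, at 1021, 934 and 845 RPM, and neither was variable. Smoc2, a calcium-binding matricellular protein, was at 239, 67.3 and 68.4 RPM and was higher in control 1. Of 36 non-collagenous matrix genes 11 were variable, against 19.3% of all genes. The count was 7 without control 3 and 4 without control 1. Among proteases Mmp2, gelatinase A, was at 677, 470.4 and 518 RPM, its activator Mmp14 at 448, 453 and 405 RPM and the inhibitor gene Timp2 at 637, 749.9 and 526 RPM. Mmp13, collagenase 3 of bone, was at 12.8, 73.9 and 91.3 RPM, low in control 1 as were Spp1 and Ibsp.

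Transcription factors of the listed families took 1.67% ± 0.139 of reads on genes. Of 344 genes of the listed families 209 had a mean of at least 1 RPM. Of the 209, 61 were variable (28 without control 3 and 32 without control 2), against 19.3% of all genes. By reads Barx1 led these families, followed by Id3, an inhibitor of basic helix-loop-helix factors, at 254, 469.8 and 365 RPM. Sox4, a factor of progenitor cells, was at 327, 191 and 218 RPM, Tbx2 at 263, 319 and 137 RPM and Dlx3, mutated in tricho-dento-osseous syndrome, at 152, 255 and 209.9 RPM. Nfic, needed for root formation, was at 209, 192 and 156 RPM and Nfix, of the same family, at 175, 147 and 160.2 RPM. Rarg, a retinoic acid receptor, was at 217, 185 and 151 RPM, Creb3l2 at 184, 226 and 138 RPM and Tcf3, an E-protein, at 180.2, 148 and 149 RPM. Sp6 (epiprofin), a factor of tooth epithelium and odontoblasts, was at 137, 165 and 318 RPM and Jund at 263, 188 and 228 RPM, but 86.7% and 52.6% of their exon bases are shared with an antisense gene model. Per kilobase of exon Barx1 stood at 293 ± 74.5 and Id3 at 284 ± 84.4 RPM per kilobase, which do not differ beyond their spread.

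Hox genes, which pattern the trunk and are silent in the first pharyngeal arch, were nearly absent. Of 39 Hox genes 37 had a mean under 1 RPM and 29 of them had no read. The exceptions were Hoxd8 and Hoxd9. Hoxd8 was at 10.04, 7.55 and 3.32 RPM and Hoxd9 at 2.47, 1.01 and 0.742 RPM, and both genes were singled out after their values were seen.

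In the BMP pathway the receptors were the most even of the groups listed, with a median CV of 13.3%, and the ligands and antagonists the least even, with 45.8% and 38.8%. After median-of-ratios scaling the ligands were at 41.0% and the antagonists at 45.5%. Of 12 ligands 7 were variable (3 without control 3), against 19.3% of all genes. Bmp7 was at 213, 176 and 199 RPM, Bmp2 at 238, 191 and 86.9 RPM, lowest in control 3, and Bmp4, an early signal of dental mesenchyme, at 102, 43.1 and 55.3 RPM, highest in control 1. Bmp3, a member that opposes the others, was at 38.1, 24.5 and 74.4 RPM and Gdf6 at 1.25, 6.33 and 36.1 RPM, both highest in control 3. Of 5 receptors with a mean of at least 1 RPM 0 were variable, against 19.3% of all genes, and their sum was 246, 261 and 249 RPM. Among type I receptors Bmpr1a had the highest level per kilobase (22.6 ± 2.38 RPM per kilobase), then Acvr1 (12.99 ± 1.86 RPM per kilobase). Bmpr1b was close to the floor, at 0.0987, 0.140 and 0.0353 RPM with at most 4 reads. Among type II receptors Acvr2a stood at 4.14 ± 0.261 and Bmpr2 at 3.26 ± 0.432 RPM per kilobase, and Acvr2b was lowest at 0.776 ± 0.229 RPM per kilobase.

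Downstream of the receptors, 2 of 6 Smad genes were variable, against 19.3% of all genes. They were the inhibitory Smad6 and the signalling Smad9 (0 without control 2 and 1 without control 3). Smad1 was at 43.2, 31.5 and 33.4 RPM, Smad5 at 148, 118 and 116 RPM and the shared partner Smad4 at 83.6, 75.5 and 68.1 RPM, none of them variable. Smad6 was at 155, 254 and 114 RPM and Smad9 at 16.4, 34.4 and 16.1 RPM, both highest in control 2. Of 6 target genes 1, Msx1, was variable, near the 19.3% of all genes, and none without control 3. Id1 was at 82.9, 128 and 132 RPM, lowest in control 1 as were Id2, Id3 and Msx2. The secreted and membrane inhibitors were abundant by reads, with Fstl1 in front, then Nbl1 at 459, 472 and 246 RPM and Bambi, a pseudoreceptor, at 205, 282 and 458 RPM. Nog, the antagonist noggin, was at 11.2, 14.2 and 14.7 RPM, and Chrd, chordin, at 44.4, 30.2 and 10.5 RPM, lowest in control 3. Sostdc1, an antagonist made around the dental epithelium, was at 79.9, 38.8 and 134.4 RPM, and Fst, follistatin, at 27.5, 4.896 and 22.2 RPM, and control 2 was lowest in both.

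The hedgehog genes that respond to the ligand were lowest in control 2, as was Shh. Ptch1, a receptor and target, was at 166, 81.8 and 150.3 RPM and Hhip, a decoy receptor, at 23.1, 11.1 and 35.6 RPM. Gli1 was also lowest in control 2, but controls 1 and 2 were close. Smo, the signal transducer, was level at 216, 214 and 199 RPM, as was Sufu, the inhibitor of Gli proteins, at 48.5, 40.8 and 39.1 RPM. Of 13 members 5 were variable, 4 of them with control 2 lower, against 19.3% and 3.29% of all genes. Without control 2 none was variable (0 of 13). The keratins were lowest in the same library, and their part in the hedgehog values was not tested.

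Most Wnt ligands were lowest in control 2. Of 19 ligand genes 13 had a mean of at least 1 RPM, and 10 of the 13 were lowest in control 2 under all 3 scalings, against 32.4% of all genes on the deposited scale. On that scale 9 of the 13 were variable, 6 with control 2 lower, against 19.3% and 3.29% of all genes. Without control 2, 5 of the 13 were variable. The 10 general epithelial markers, with a sum of 2113, 288 and 3563 RPM, were also lowest in control 2, and their part in the Wnt values was not tested. Wnt5a, a ligand known from dental papilla, was at 205, 233 and 137 RPM, lowest in control 3. Wnt10a, mutated in tooth agenesis, was at 105, 54.5 and 109 RPM, and Wnt7b, known from oral epithelium, at 23.3, 1.61 and 21.5 RPM, both lowest in control 2. Wnt4 was at 41.5, 46.3 and 226 RPM, so that control 3 alone was high. The antagonists were led by Wif1 at 485, 686 and 707 RPM, and Sfrp5 was at 31.9, 46.1 and 289.8 RPM, higher in control 3. Axin2, a feedback target, was at 46.01, 27.4 and 38.3 RPM, and Notum, an enzyme that inactivates Wnts, at 26.1, 47.6 and 111 RPM. Of 14 antagonists and targets 8 were variable, against 19.3% of all genes, and 2 without control 3.

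FGF ligands were low and variable, whereas a receptor was abundant. Of 22 ligand genes 12 had a mean of at least 1 RPM and 10 of the 12 were variable, against 19.3% of all genes. The count was 5 without control 1 and 4 without control 3. Fgf10, a mesenchymal ligand, was at 10.1, 6.85 and 2.22 RPM, lowest in control 3, and Fgf9, an epithelial ligand, at 2.14, 3.08 and 11.3 RPM, highest in control 3. Fgf3, a dental papilla ligand, was at 2.797, 2.06 and 1.34 RPM. The intracellular member Fgf13 was at 45.5, 90.8 and 25.3 RPM. Fgfr1 was at 1035, 1646 and 557 RPM, lower in control 3, Fgfr2, in its epithelial and mesenchymal forms together, at 163, 125 and 239 RPM, and Fgfr3 at 138, 223 and 59.5 RPM. Dusp6, a feedback phosphatase, was not variable at 44.7, 34.8 and 39.3 RPM.

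The shares of variable genes among the TGF-beta and IGF genes were near the 19.3% of all genes. Tgfb3 was at 320.4, 492 and 159.8 RPM, Tgfb1 at 166, 205 and 156 RPM and the receptor gene Tgfbr2 at 168, 169.8 and 141 RPM, and 2 of 8 listed genes were variable (1 when any library was left out). Of 12 Notch genes 8 were variable, 6 with control 3 lower (against 9.47% of all genes), and without control 3 none was (0 of 12). Notch2 was at 330.5, 276 and 255 RPM, the ligand gene Dll1 at 35.1, 58.7 and 10.8 RPM and the target Hey1 at 174, 246 and 95.6 RPM. Of 12 IGF members 3 were variable (2 when any library was left out), with a median CV of 25.0% per gene. Together they summed to 4905, 4804 and 5302 RPM with a CV of 5.26% for the sum, in which the few most abundant members weigh most. Igf2 was at 800.4, 867 and 563 RPM and its imprinted neighbour H19, a non-coding RNA, at 1115, 293 and 478 RPM, with control 1 higher. Of 16 imprinted growth genes 12 were lowest in control 3 (53.7% of all genes were), or 10 after median-of-ratios scaling (40.5% of all genes), and Cdkn1c, a cell cycle inhibitor, was an example at 392, 412 and 279 RPM.

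Ribosomal protein genes shared a small difference. They took 2.17%, 1.91% and 2.74% of reads on genes. Of 81 such genes 78 were highest in control 3 and 66 lowest in control 2, against 27.9% and 32.4% of all genes. Of the 81, 2 were variable (1 when any library was left out), against 19.3% of all genes. After median-of-ratios scaling 80 were highest in control 3 and 52 lowest in control 2, against 41.9% and 33.96% of all genes. Rps3 was at 980.0, 769 and 1285 RPM, Rpl8 at 792, 692 and 979 RPM and Rplp0 at 781, 656 and 1019 RPM. Gene length moved with the same library. Protein-coding genes were split into 3 classes of equal size by exon length, and the median difference of control 3 from control 1 on the log2(RPM + 1) scale was -0.04 in the shortest class (201 to 2557 bases), -0.19 in the middle class and -0.30 in the longest. From control 1 to control 2 the medians were -0.05, -0.04 and -0.04. The part of transcript length in the values of control 3 was not tested.

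Proliferation genes were lowest in control 2. Of 20 cell cycle genes 20 were lowest there under all 3 scalings (32.4% of all genes were on the deposited scale and 33.96% after median-of-ratios scaling), though 2 were variable (none without control 1 or without control 2), and their sum was 668, 412 and 558 RPM. Mki67 was at 71.8, 32.2 and 42.1 RPM and Top2a, the topoisomerase of dividing cells, at 87.9, 49.6 and 72.7 RPM. Pcna, the DNA polymerase clamp, was at 37.1, 30.9 and 36.5 RPM. Control 1 was highest in 17 of the 20 on the deposited scale, but in 10 after median-of-ratios scaling, with the others highest in control 3. The 10 general epithelial markers were lowest in control 2 as well, and their part in the cell cycle values was not tested. Of 15 glycolysis genes 13 were highest in control 3 under all 3 scalings, beside 27.9% of all genes on the deposited scale and 41.9% after median-of-ratios scaling, and 2 were variable (0 without control 2), with Pkm at 264, 246 and 339.5 RPM, Aldoa at 135, 140.5 and 174 RPM and Ldha at 117, 130.3 and 164 RPM. Hk2 was at 18.96, 6.33 and 32.1 RPM and Slc2a1, the glucose transporter, at 25.1, 11.4 and 33.9 RPM, both variable with control 2 lower.

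Immediate early and heat shock genes respond to handling. Jun was at 68.4, 31.2 and 35.1 RPM, Fos at 2.501, 4.97 and 2.68 RPM and Egr1 at 12.2, 10.7 and 11.8 RPM. Of 11 immediate early genes 3 were variable (1 without control 1), against 19.3% of all genes. Their median CV was 22.9% beside 16.8% over all genes. Of 7 heat shock genes 0 were variable (1 after median-of-ratios scaling), against 19.3% of all genes. Their median CV was 15.8%, with Hspa8 at 249, 233 and 324 RPM and Hspa5, the chaperone of the endoplasmic reticulum, at 397, 469 and 507 RPM. The mitochondrially encoded genes, 13 symbols, were listed without reads in all 3 libraries, so no level is drawn from them.

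Common reference genes were not equally even. Ywhaz, an adaptor protein gene, was at 144, 128 and 145 RPM with a CV of 6.91%. Actb, beta-actin, was at 801, 709 and 923 RPM (CV 13.2%). Tfrc, the transferrin receptor, was at 14.2, 9.48 and 25.6 RPM with the highest CV, 50.5%, and was the single variable gene of the 15 (none without control 2 or without control 3). Gapdh was listed at 18.2, 16.5 and 24.6 RPM, at rank 7464 by reads. Gapdh, Pgk1 and Ppia have near-identical pseudogene copies, so their listed levels are uncertain.

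Variation between the libraries exceeded counting error in most genes. The median CV was 16.8% over all 14417 genes, beside 4.05% from counting reads alone, and 977 genes (6.78%) were at or below their counting CV. The median CV was 26.3% for genes of 1 to 10 RPM, 14.0% from 10 to 100, 14.7% from 100 to 1000 and 22.5% for the 31 genes at or above 1000 RPM. Over the same classes the counting CV went down from 9.15% to 0.507%. Among the 1308 genes averaging 100 RPM or more, Hnrnpk, an RNA-binding protein, was the most even on the deposited scale. It was at 221, 218 and 220.2 RPM, a CV of 0.674%, below its counting CV of 1.25%. Such lowest values are picked from many genes. They hold for this scale only, since median-of-ratios scaling divides controls 1, 2 and 3 by 1.06, 1.02 and 0.931. Next came Morf4l2, a chromatin protein, at 210.3, 208 and 211 RPM, the exchange factor gene Arhgef17 at 150.2, 151 and 148 RPM and Ppp2r1a, the phosphatase 2A scaffold, at 175, 172 and 174 RPM. Ddx5, an RNA helicase, was at 383, 388 and 392 RPM, and Fth1, ferritin heavy chain, at 437, 443 and 446 RPM.

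**Figure D4:**
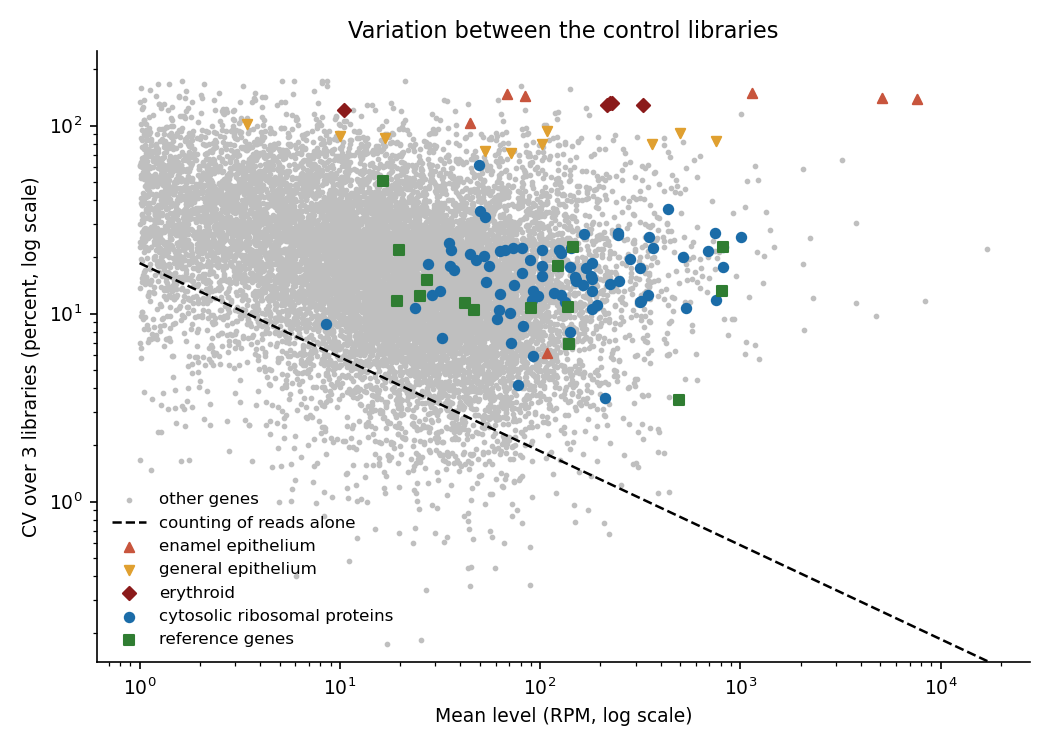
CV over the 3 control libraries (percent, log scale) against mean level (RPM, log scale), a grey point per gene and coloured symbols for the members of 5 lists, with the dashed line at the CV that counting of reads alone would give. Enamel, general epithelial and erythroid genes lie near the top except Mmp20, and ribosomal protein and reference genes lie within the main cloud.

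The highest CVs among genes averaging 10 RPM or more came mostly from control 3. After Ddx3y, the leading genes were Csn3, kappa casein, at 7.57, 2.83 and 231 RPM, and Calb1, the calcium-binding protein calbindin, at 14.8, 12.9 and 397 RPM. Acpt, an acid phosphatase gene mutated in enamel disease, was at 7.77, 7.45 and 87.4 RPM, Ckmt1, a mitochondrial creatine kinase, at 8.46, 5.81 and 85.2 RPM, and Sox21 at 4.44, 4.302 and 45.4 RPM. Apod, apolipoprotein D, was the exception with control 1 higher, at 159.8, 18.6 and 7.45 RPM. The genes in the rest of this paragraph were chosen after their values were seen, as those with a large range in each direction. Cyp26a1, which degrades retinoic acid, was at 22.1, 74.6 and 409.8 RPM, higher in control 3. Sod3, extracellular superoxide dismutase, was at 72.96, 127 and 2.12 RPM and Cntfr, the receptor for ciliary neurotrophic factor, at 32.3, 45.99 and 2.75 RPM, both lower in control 3. Trf, transferrin, was at 484, 727 and 29.02 RPM with the same order, but 76.7% of its exon bases are shared with Gm20425. Vdr, the vitamin D receptor, was at 72.3, 156 and 33.5 RPM, highest in control 2. Ntrk2, a neurotrophin receptor, was at 142, 8.29 and 45.3 RPM, lowest in control 2. Ngfr, the low-affinity nerve growth factor receptor, was at 82.05, 12.9 and 19.2 RPM, higher in control 1.

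The 2 libraries of litter 1 were the most alike, as a description across 14417 genes that are not independent of each other. Spearman's rho was 0.974 between controls 1 and 2, 0.955 between 1 and 3, and 0.934 between 2 and 3. On the log2(RPM + 1) scale 544 genes (3.77%) differed at least 2-fold between controls 1 and 2, 1149 (7.97%) between 1 and 3, and 1621 (11.2%) between 2 and 3. Of the top 100 genes of each library 82 were shared by controls 1 and 2, 80 by 1 and 3, and 67 by 2 and 3. The count of variable genes rested largely on 1 library: 794 genes were variable without control 3, against 1694 without control 2 and 2169 without control 1. The median CV without control 3 was 8.94%. A smaller count is also given by having fewer libraries, and controls 1 and 2 share a litter.

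**Figure D5:**
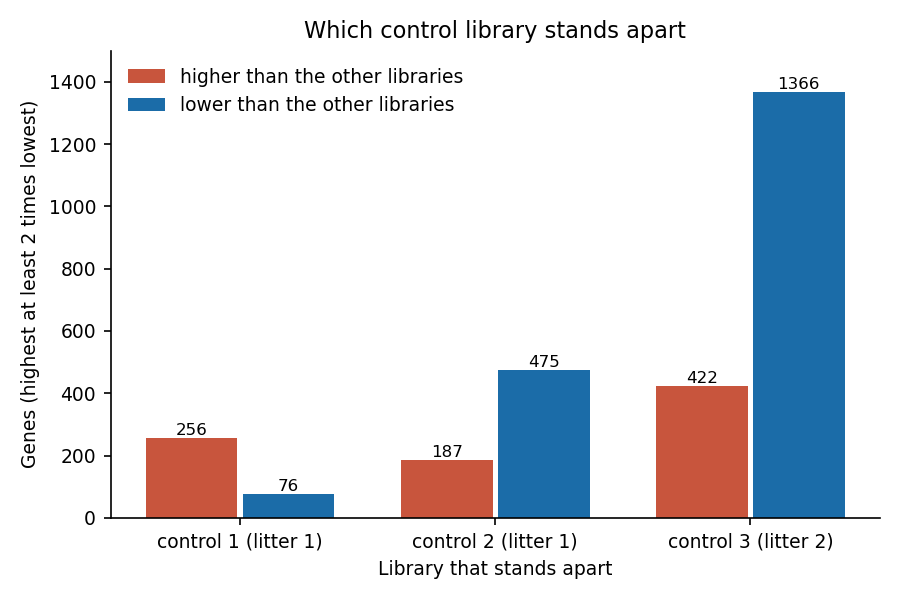
Number of variable genes (bars from 0) by the library that stood apart from the others on the log scale, in red where it was higher and in blue where it was lower. The bar for control 3 lower, at 1366 genes, is the tallest, and control 1 lower, at 76, is the shortest.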

How the data were processed

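The authors deposited a table titled normalized RPKM whose values, per the file headers and the values themselves, are on a log2 scale. Per the submitters' processing notes TopHat2 and mm10 were used. The counting program and annotation are not given in the sources used here. Raised as powers of 2, 99.97% to 99.99% of values above each control column's minimum were whole multiples (within 0.05 reads) of a step shared by all genes, which shows no division by gene length, and the unit was treated as log2 of RPM, reads per 1000000 reads. The denominator is inferred from that step. Column minima, at 0.9 of 1 read, were taken as 0. Reads on genes made up 67.5% to 68.4% of the implied totals, and 3 reads, taken as the floor, were 0.0987 to 0.106 RPM.

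CVs, ranks, shares and ratios were computed with Python 3.11.15, numpy 2.4.6, pandas 2.3.3 and scipy 1.17.1, and the recovery of reads was tested on simulated data. Groups came from the genotype labels. Exon lengths and positions came from GENCODE M21 for 97.9% of genes, 1153 of them by a RefSeq synonym. Named were Col1a1, Dspp, Bmpr1a, the 20 highest genes, genes of highest CV (mean of at least 10 RPM) and lowest CV (at least 100 RPM), the highest transcription factors, and leading or defining members of each list; a few genes under this rule are not reported here. Members and lists were chosen with earlier results of these data known. Alternatives were other scalings, filters, pseudocounts, lengths and leaving out each library. Mutant libraries were not used.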

Additional observations from a re-analysis of the deposited data

How the results depend on the processing

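Genes averaging 100 RPM or more numbered 2288 instead of 1308 when levels were put per 1000000 reads on genes, a change of unit. The count of variable genes, 2782, was 1641 with a mean of at least 5 RPM and 4519 with no filter. By library apart, with a mean of at least 5 RPM and with no filter, it was 154 and 826 for control 1 (332 as reported) and 380 and 1172 for control 2 (662). For control 3 (1788) it was 1107 with a mean of at least 5 RPM. Leaving out each library in turn gave 794 to 2169 variable genes and a median CV of 8.94% to 17.7%. Of the 20 genes with the most reads 13 stayed in the top 20 per coding length and 11 per exon length, the second chosen after seeing the data. The shares of the top 10, top 100, collagen and ribosomal protein genes stayed within 1 SD of the reported values in the settings run. The numbers of variable genes in the gene lists, which often rested on 1 library, are given with most of the lists. No paired analysis was possible because a single group was described. Depth limits genes of 1 to 10 RPM, whose median counting CV was 9.15%.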
